A study of Mus musculus with 24 samples.

Results

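The dual-specificity MAP kinase phosphatases (MKPs) are enzymes that remove phosphate from both the threonine and the tyrosine of an activated MAP kinase and so switch it off. The 10 members described here (Dusp1, Dusp2, Dusp4, Dusp5, Dusp6, Dusp7, Dusp8, Dusp10, Dusp16 and Dusp26) were taken by name from a list of Dusp genes and were found among the 55487 genes listed for each mouse through their GENCODE symbols. All 10 passed the filter on low counts in every comparison.

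Members of the family are sorted by where they act and which kinases they prefer. Dusp1, Dusp2, Dusp4 and Dusp5 are nuclear enzymes whose genes are switched on by the kinases they later silence, Dusp6 and Dusp7 are cytoplasmic and prefer ERK, Dusp8, Dusp10 and Dusp16 prefer the stress kinases JNK and p38, and Dusp26 is a small atypical enzyme that lacks the usual kinase-binding domain. In skeletal muscle, contraction activates all 3 kinase branches, and the phosphatases set how long their activity lasts.

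RNA was sequenced from the tibialis anterior (TA) of 24 wild-type male C57BL/6J mice aged 5 to 7 weeks, 6 in each of 4 groups. Photobiomodulation therapy (PBMT) was a single exposure of the shaved lower limbs to 830 nm light at 25 mW/cm² for 20 min (30 J/cm²) under anesthesia, and control mice were shaved and anesthetized for the same time without light. Sedentary mice were dissected 24 h after the procedure, and fatigued mice were run on a treadmill to exhaustion 24 h after it, for as long as each mouse lasted, and dissected directly afterwards. No control with warming alone is among the groups, and sedentary and fatigued mice were sequenced as separate projects, so that between them exercise and sequencing project cannot be told apart.

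The total of counted reads ran from 43271093 to 46904076 in sedentary controls, from 46327516 to 52775844 in sedentary PBMT mice, from 56792327 to 68726155 in fatigued controls and from 53122528 to 68566029 in fatigued PBMT mice. Sedentary PBMT libraries were larger on average than their controls (exact permutation test of the mean difference, two-sided p = 0.00433, n = 6 per group), though sedentary PBMT replicate 2 lay below sedentary control replicate 2. Fatigued PBMT and control libraries also overlapped (exact permutation p = 0.357, n = 6 per group). Levels are given as CPM, read counts scaled to library totals normalized by TMM, the trimmed mean of M values, and levels of different genes are compared as CPM per kilobase of merged exon. Differences are log2 fold changes from edgeR with their standard errors (SE), called at an adjusted p under 0.05 over all genes tested.

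The tissue label was checked first. All 10 muscle fiber markers (Acta1, Ckm, the myosin heavy chains and others) had at least 10 counts in every mouse, and their summed level ran from 1.01e+05 to 1.68e+05 CPM with Acta1 the most abundant per kilobase. Lymphocyte markers were near 0, with a summed level between 0.0390 and 0.611 CPM and each of the 7 markers without a count in some mice. Summed levels in sedentary controls had medians of 286 CPM for endothelial markers, 860 CPM for pericyte and smooth muscle markers, 443 CPM for interstitial mesenchymal markers, 58.5 CPM for myeloid markers and 28.0 CPM for satellite cell markers. Schwann cell (60.8 CPM), adipocyte (8.89 CPM), tendon (80.2 CPM), erythrocyte (80.3 CPM) and skin keratinocyte (2.40 CPM) markers were also present. The samples are bulk muscle, so fewer cells of a type and less RNA per cell cannot be told apart for any of the genes below.

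Sedentary control replicate 4 stood apart from the rest of its group. Its chi-square per degree of freedom was 419 to 446 against every other control, where the others had 12.98 to 71.2 among themselves. The 37 mitochondrial transcripts made up 3.25% of its counts, against 15.5 to 17.0% in the other sedentary controls, 13.85 to 17.1% in sedentary PBMT mice, 10.5 to 12.85% in fatigued controls and 10.7 to 12.1% in fatigued PBMT mice, a look taken after the values were seen. The mouse was kept, it held the highest control value of Dusp2, Dusp5, Dusp7, Dusp8, Dusp10 and Dusp26, and results without it are given below. What sets it apart, and its part in the levels of the members, was not tested.

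Within the family, levels per kilobase spanned a wide range in every group. Dusp26 stood first in all 4 groups, at a mean of 42.2 ± 4.02 CPM per kilobase (SD, n = 6) in sedentary controls, and Dusp1 stood next at 17.4 ± 2.88 CPM per kilobase (SD, n = 6). The lowest Dusp26 mouse lay above the highest Dusp1 mouse in each group. Dusp7 (8.22 CPM per kilobase), Dusp8 (6.38), Dusp10 (5.30) and Dusp6 (3.97) followed in sedentary controls with ranges that overlapped between neighbors, as did Dusp6 with Dusp16 (3.00 CPM per kilobase). The place of Dusp16 depends on the length used, since by longest transcript it stood above Dusp6 there (4.361% and 4.195% of the summed level). Then came a gap, below which Dusp4 (0.476 CPM per kilobase), Dusp2 (0.239) and Dusp5 (0.191) overlapped from neighbor to neighbor.

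The order of the middle members differed between groups. Dusp10 came after Dusp1 per kilobase in sedentary PBMT mice at 10.97 ± 3.75 CPM per kilobase (SD, n = 6), where its range overlapped that of Dusp1 above it and of Dusp7 below it. In fatigued controls Dusp8 came after Dusp1 at 9.74 ± 1.65 CPM per kilobase (SD, n = 6), and its range did not reach down to that of Dusp7. Dusp5 was the lowest member per kilobase in 3 groups and Dusp2 in fatigued controls, where the 2 genes overlapped. The level of Dusp1 relative to other genes is uncertain, because its GENCODE gene overlaps 4 others. Among them is Ergic1 on the opposite strand with 937 to 2163 counts per mouse, and the strand setting of the counting is not given in the sources used here. The same limit holds for Dusp10, which 1700056E22Rik overlaps on the opposite strand with 7 to 44 counts per mouse, while the antisense partners of Dusp5, Dusp8 and Dusp16 had at most 1 count.

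As shares of the family's summed CPM per kilobase, Dusp26 took 48.3 ± 2.34% in sedentary controls and 39.9 ± 2.26% in sedentary PBMT mice (SD, n = 6 each). These shares did not overlap, with 45.5 to 51.3% in controls and 37.6 to 43.2% after PBMT. A share also depends on the levels of the other members, and it has no counterpart over all genes. In CPM the Dusp26 groups overlapped, at 83.3 to 111 CPM in sedentary controls and 76.9 to 86.9 CPM in sedentary PBMT mice. The share of Dusp10 was 6.10 ± 1.23% in sedentary controls and 12.2 ± 4.03% in sedentary PBMT mice (SD, n = 6 each), with overlap, while those of Dusp8 (7.25 and 7.57%) and Dusp16 (3.46 and 3.12%) were close. The JNK- and p38-preferring members together, which these 3 are, took 14.4 to 19.9% in sedentary controls and 16.4 to 32.04% after PBMT, ranges that overlap. Their mean was 16.8% and 22.9% there, and 23.1% and 24.9% in fatigued control and PBMT mice. Nuclear members held a mean of 19.3 to 23.6% across the groups, most of it Dusp1, and the cytoplasmic pair 10.99 to 13.97%. The summed level itself differed little, with group means from 81.6 to 89.7 CPM per kilobase.

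**Figure D1:**
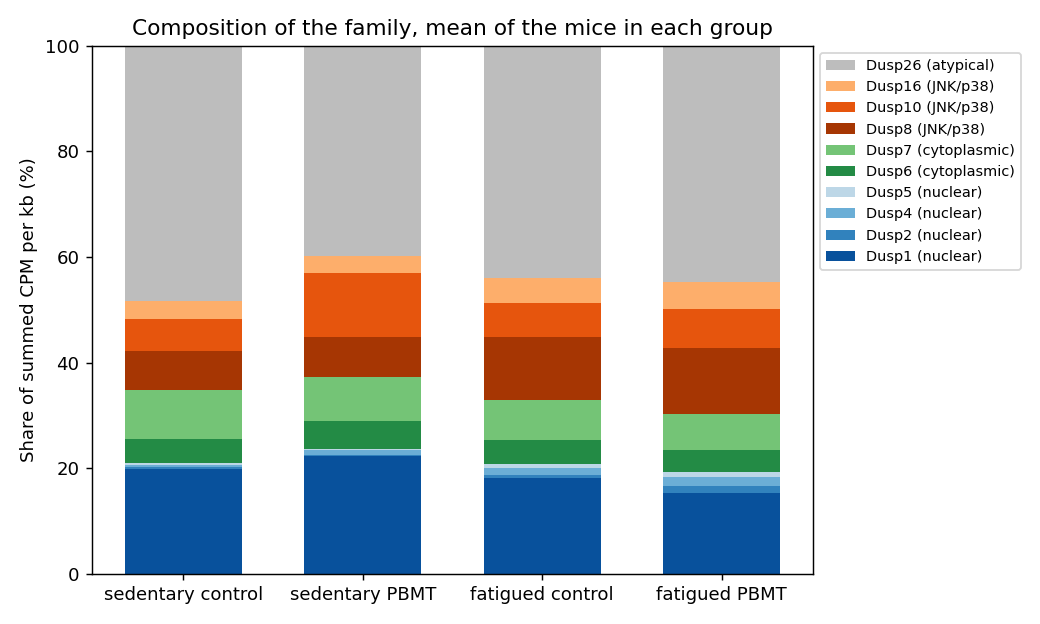
Share of the family's summed level (CPM per kilobase of merged exon, in percent) taken by each member, as the mean of 6 mice in each of the 4 groups. Dusp26 takes the largest share in every group with 48.3% in sedentary controls and 39.9% in sedentary PBMT mice, while among the JNK- and p38-preferring members (orange shades) Dusp10 takes 6.10% and 12.2% there, Dusp8 7.25% and 7.57%, and Dusp16 3.46% and 3.12%.

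The comparison of PBMT with control in sedentary muscle asks what the light leaves in resting muscle a day later. Of the 10 members, 0 were called by edgeR, against 0.0282% of the 14177 genes tested, and 1 (Dusp10) by DESeq2, against 0.376% of the 15938 genes it tested. At an unadjusted p under 0.05 there were 3 members (Dusp4, Dusp10 and Dusp26), against 7.63% of genes. None of the members had groups free of overlap, against 0.48% of genes, but leaving out 1 mouse parted the groups in Dusp10 (without control replicate 4, against 1.1% of genes, or PBMT replicate 5, 0.896%), Dusp26 (without control replicate 2, 0.748%) or Dusp4 (without PBMT replicate 4, 0.818%). The 4 genes that edgeR called were Ccn1, Egr1, Cited2 and Nfil3, the last of these lower after PBMT, and Cited2 and Nfil3 are named here after their values were seen. In a fit of all 24 mice Nfil3 alone was still called, with an adjusted p of 0.116 for Ccn1, 0.113 for Egr1 and 0.389 for Cited2. Leaving out 1 mouse, Ccn1 and Nfil3 were called in 12 of 12 fits, Egr1 in 7 and Cited2 in 5.

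Dusp10 (ENSMUSG00000039384, chr1:184013302-184075636 of GRCm38, plus strand), an inactivator of JNK and p38, had the largest difference of the family in this comparison. Its level ran from 11.9 to 20.3 CPM in sedentary controls (median 16.0) and from 19.4 to 51.8 CPM in sedentary PBMT mice (median 34.8). PBMT mice were the high group, with 5 of 6 above every control and the sixth inside the control range. The log2 fold change was 1.05 ± 0.20 (SE), a 2.08-fold higher level, with an adjusted p of 0.0896 in edgeR and 0.000128 in DESeq2, whose calls on simulated data held a larger share of unchanged genes than its threshold allows. Across the alternatives the adjusted p ran from 0.000128 to 0.581. It passed in edgeR when sedentary PBMT replicate 5 was left out (log2 fold change 1.17, adjusted p = 0.0167) and ranged up to 0.254 when other mice were left out. The log2 fold change was lowest, at 0.89, without sedentary PBMT replicate 2, the mouse with the highest level. The control that overlapped the PBMT mice was replicate 4, without which the log2 fold change was 1.12 (adjusted p = 0.161).

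Dusp4 (ENSMUSG00000031530, chr8:34807297-34819894, plus strand), a nuclear phosphatase for ERK and JNK, was low in sedentary muscle. It ran from 0.903 to 1.57 CPM in controls (median 1.36) and from 1.30 to 2.33 CPM after PBMT (median 2.10), with 5 of 6 PBMT mice above every control. Its log2 fold change was 0.62 ± 0.18 (SE), and it was not called (adjusted p = 0.349). The values rest on 43 to 71 reads per control and 66 to 114 reads per PBMT mouse. Dusp4 is a gene that the study names for PBMT in both settings, so its values here and in fatigued muscle are not independent evidence. The study reports it as significantly upregulated in both settings, whereas edgeR and DESeq2 called it in neither here.

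Dusp26 (ENSMUSG00000039661, chr8:31089471-31097047, plus strand), the atypical member and the most abundant per kilobase, pointed the other way. Its level was between 83.3 and 111 CPM in sedentary controls (median 97.3) and between 76.9 and 86.9 CPM in PBMT mice (median 81.6). All 6 PBMT mice lay below the control median and 4 of 6 below every control. The log2 fold change of −0.24 ± 0.07 (SE) was not called (adjusted p = 0.349).

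The other 7 members had log2 fold changes from −0.15 (Dusp5) to 0.40 (Dusp2) and adjusted p values from 0.652 to 0.927. Without control replicate 4 the log2 fold change was 0.75 in Dusp2, 0.25 in Dusp8 and −0.03 in Dusp5. Dusp2 was at 0.24 without control replicate 6, and Dusp5 ran from −0.47 (without PBMT replicate 4) to 0.02 (without PBMT replicate 6). Dusp1, the inducible phosphatase that responds to stress and glucocorticoids, ran from 48.0 to 74.01 CPM in controls (median 54.4) and from 42.0 to 94.7 CPM after PBMT (median 69.1). PBMT mice spread to both sides of the control range, 2 above all controls and 2 below all controls. Dusp2 rested on only 9 to 46 reads per sedentary mouse and Dusp5 on 9 to 42, so small differences in these genes could not be seen at this depth.

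Other measures also moved between these groups. The larger PBMT libraries are given above. Of the 6 myeloid markers, all had a log2 fold change below 0 (median −0.57) and 0 were called by edgeR, with 2 lower at an unadjusted p under 0.05 and 0 called by DESeq2. Their summed level was 38.1 to 105 CPM in controls and 30.0 to 56.2 CPM after PBMT, with Lyz2 the most abundant per kilobase and no marker at 0. All 6 interstitial mesenchymal markers (median log2 fold change −0.24, 1 lower at an unadjusted p under 0.05) and all 5 neutrophil markers (median −0.43, 0 at an unadjusted p under 0.05) were below 0 too, and 2 of 6 endothelial, 1 of 6 satellite cell and 1 of 6 pericyte and smooth muscle markers were higher at an unadjusted p under 0.05, with 0 called by edgeR or DESeq2 in each list. Interstitial mesenchymal markers summed to 309 to 496 CPM in controls and 301 to 463 CPM after PBMT (Dcn on top, no marker at 0), and neutrophil markers to 22.7 to 50.6 and 1.36 to 54.2 CPM (S100a9 on top, no marker at 0). The low neutrophil sums came from sedentary PBMT replicates 1 (1.36 CPM) and 2 (4.62 CPM), and the other PBMT mice lay at 26.4 to 54.2 CPM. Replicate 2 also held the highest Dusp10, Dusp6, Dusp4, Dusp8 and Dusp16 of its group, and the lowest Dusp2 and Dusp7. Endothelial markers summed to 267 to 318 and 226 to 399 CPM (Cdh5 on top), satellite cell markers to 25.9 to 38.5 and 26.8 to 36.9 CPM (Cdh15 on top), and pericyte and smooth muscle markers to 665 to 899 and 749 to 975 CPM (Rgs5 on top), with no marker at 0. Skin keratinocyte markers summed to 1.66 to 5.27 CPM in controls and reached 25.5 CPM in sedentary PBMT replicate 4 and 9.15 CPM in sedentary PBMT replicate 2, against 1.61 to 2.54 CPM in the other PBMT mice (Krt10 on top, with Krt5, Krt14 and Krt1 at 0 in some mice). The part of these cells in the differences of Dusp10, Dusp4 and Dusp26 was not tested.

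In fatigued muscle the same comparison asks what the light leaves in muscle run to exhaustion. Each mouse ran for its own time, and the study reports longer running after PBMT, so that light and amount of running cannot be told apart here. The tool edgeR called 0 members and 0 genes in all (0% of the 14574 tested). At an unadjusted p under 0.05 there was 1 member (Dusp2), against 1.58% of genes, and DESeq2 called 1 member, again Dusp2, against 0.00716% of the 27916 genes it tested. The other gene called by DESeq2 was Trp63, named here after its values were seen. No member had groups free of overlap, against 0.0274% of genes, but Dusp2 had when fatigued control replicate 4 (against 0.0755%) or fatigued PBMT replicate 2 (0.247%) was left out.

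Dusp2 (ENSMUSG00000027368, chr2:127336159-127338376, plus strand) is a nuclear phosphatase first described in activated immune cells. Its level ran from 0.655 to 1.48 CPM in fatigued controls (median 0.987) and from 1.37 to 2.40 CPM in fatigued PBMT mice (median 1.96). PBMT mice were high, with 5 of 6 above every control and the sixth within the control range. The log2 fold change was 0.96 ± 0.21 (SE), a 1.94-fold higher level, with an adjusted p of 1 in edgeR and 0.0387 in DESeq2, and of 0.0387 to 1 across the alternatives, and the limit of DESeq2 calls named for Dusp10 holds here too. Dusp2 is a gene that the study names from these mice, so the value is not independent evidence. The 7 lymphocyte markers had summed levels of 0.127 to 0.337 CPM in fatigued controls and 0.0390 to 0.336 CPM in fatigued PBMT mice, with Nkg7 the most abundant per kilobase and each of them at 0 in some mice. All 3 neutrophil markers tested were above 0 (median log2 fold change 0.65, median sums of 0.558 CPM in controls and 1.58 CPM after PBMT). So were 5 of 6 myeloid (median 0.135) and 4 of 4 tendon markers (median 0.265). Pericyte and smooth muscle markers had 0 of 6 above 0 (median −0.127) and Schwann cell markers 0 of 4 (median −0.294). edgeR called 0 of the markers in these lists, 0 had an unadjusted p under 0.05, and the part of these cells was not tested.

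Of the remaining members, Dusp4 (log2 fold change 0.37 ± 0.19, SE) and Dusp5 (0.34 ± 0.25, SE) were next in size, and all 9 had an adjusted p of 1 in edgeR. Dusp4 ran from 2.66 to 3.65 CPM in fatigued controls (median 2.80) and from 2.89 to 5.96 CPM after PBMT (median 3.11). All 6 PBMT mice lay above the control median, but only 2 were above the control range. The study's naming of Dusp4 for PBMT covers these mice too. Leaving out 1 mouse, the log2 fold change ran from 0.20 (without fatigued PBMT replicate 3) to 0.44 in Dusp4 and from 0.20 (without fatigued PBMT replicate 5) to 0.47 in Dusp5. Dusp10, the member with the largest difference in sedentary mice, ran from 8.39 to 33.1 CPM in fatigued controls (median 14.5) and from 9.54 to 36.1 CPM in fatigued PBMT mice (median 17.2), and these ranges nearly coincide. Its log2 fold change was 0.16 ± 0.38 (SE) and became −0.15 without fatigued PBMT replicate 5.

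Whether the light acted differently in the 2 settings was tested directly, as the PBMT effect in fatigued minus that in sedentary muscle, where light and amount of running again cannot be told apart. edgeR called 0 members, against 0.00662% of 15108 genes, 1 member (Dusp26) had an unadjusted p under 0.05, against 4.4%, and DESeq2 called 0 members, against 0.00334% of the 29935 genes it tested (1 gene, as in edgeR). The 1 gene called was Nfil3, named after its values were seen. The difference for Dusp10 was −0.89 ± 0.46 on the log2 scale (SE, adjusted p = 0.946), from a mean of 16.1 and 33.4 CPM in sedentary control and PBMT mice to 16.5 and 18.4 CPM in the fatigued groups. For Dusp26 it was 0.26 ± 0.12 (SE, adjusted p = 0.946) and for Dusp2 0.56 ± 0.43 (SE, adjusted p = 0.946). Leaving out 1 mouse, the value ran from −1.21 (without fatigued PBMT replicate 5) to −0.58 (without fatigued control replicate 6) in Dusp10, from 0.17 (without fatigued PBMT replicate 1) to 0.31 in Dusp26 and from 0.20 (without sedentary control replicate 4) to 0.72 in Dusp2. The lowest adjusted p of any member was 0.946, so no member was shown to respond differently to light after exercise. Of the cell type markers edgeR and DESeq2 called 0 here, and at an unadjusted p under 0.05 1 interstitial mesenchymal marker was higher and 1 pericyte and smooth muscle and 1 satellite cell marker were lower. All 6 myeloid (median 0.67), all 6 interstitial mesenchymal (median 0.30) and all 4 tendon markers (median 0.285) were above 0. Schwann cell markers had 0 of 4 above 0 (median −0.49), and the 1 keratinocyte marker tested was at −1.05. Levels of myeloid and interstitial mesenchymal markers are given beside the comparisons of groups, and the part of these cells was not tested.

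**Figure D2:**
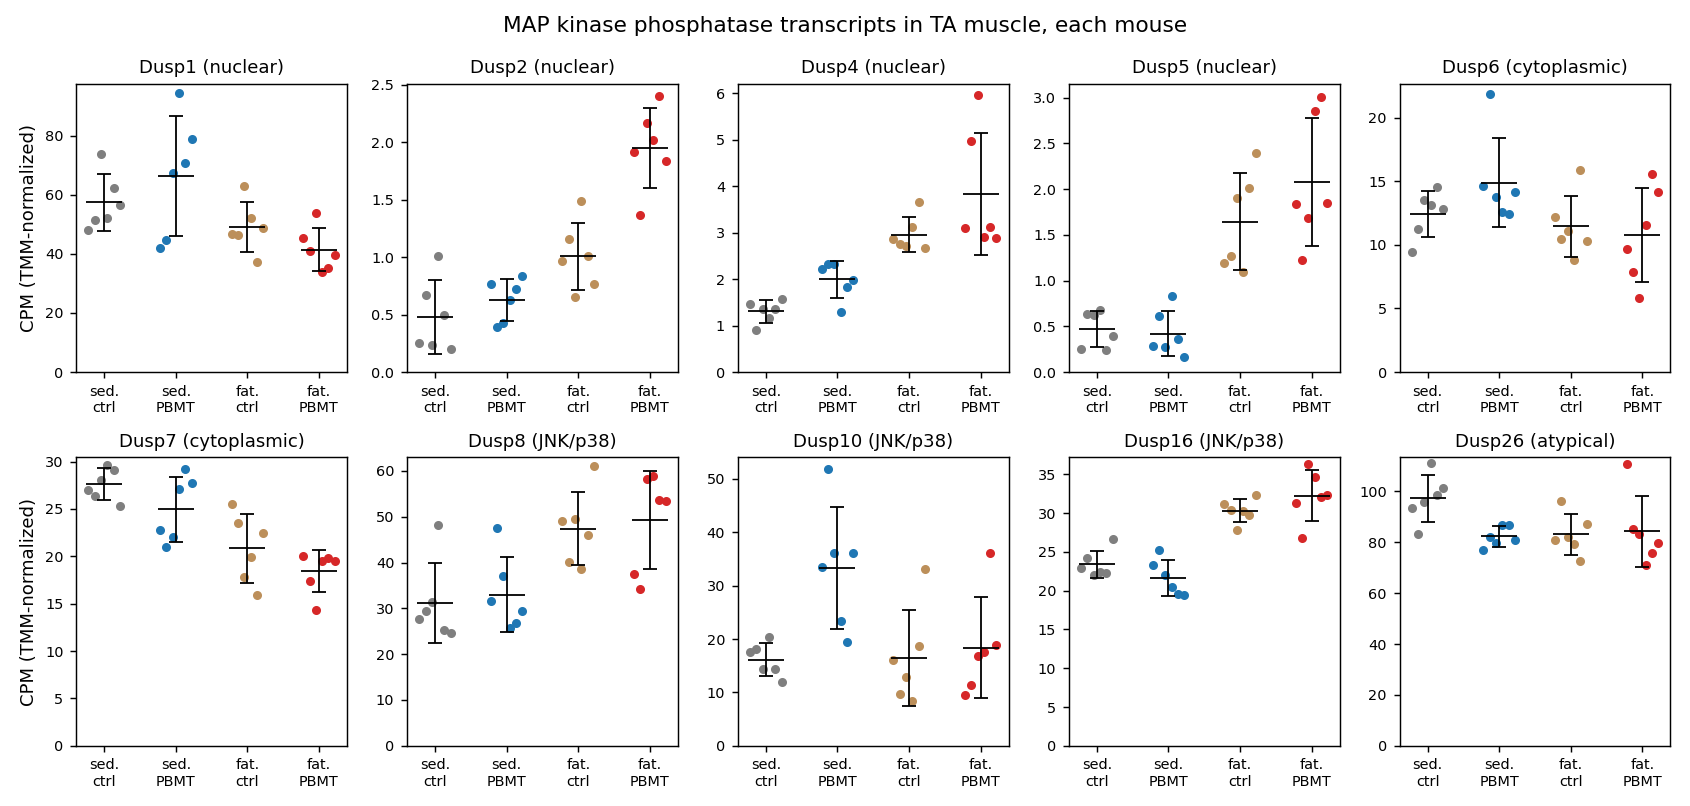
Level of each member in every mouse (y axis, CPM on TMM-normalized totals, each panel with its own scale from 0) in the 4 groups (x axis, sedentary before fatigued and control before PBMT), with mean and SD bars over 6 mice. Dusp4, Dusp5 and Dusp16 are higher in every fatigued control than in every sedentary control, Dusp10 is high in sedentary PBMT mice, and Dusp2 is highest in fatigued PBMT mice.

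The family differed far more between fatigued and sedentary mice, in a comparison where exercise and sequencing project cannot be told apart. Between the control groups edgeR called 6 of 10 members, against 18.6% of the 15108 genes tested. Of these, 5 were higher in fatigued controls (Dusp2, Dusp4, Dusp5, Dusp8 and Dusp16), against 9.1% of genes, and 1 was lower (Dusp7), against 9.49%. In 3 members (Dusp4, Dusp5 and Dusp16) the groups did not overlap, against 7.7% of genes. Dusp8 joined them without sedentary control replicate 4 (against 15.3% of genes), and Dusp7 without sedentary control replicate 6 (8.99%) or fatigued control replicate 1 (8.4%).

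Between the PBMT groups 7 of 10 members were called, against 26.8% of genes. The same 5 members were higher in fatigued mice, against 14.1% of genes, and 2 were lower (Dusp1 and Dusp7), against 12.7%. Groups did not overlap for 5 members (Dusp2, Dusp4, Dusp5, Dusp7 and Dusp16), against 11.2% of genes, and for Dusp10 as well without fatigued PBMT replicate 5 (12.8% of genes).

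Among the nuclear members, Dusp5 (ENSMUSG00000034765, chr19:53529109-53542431, plus strand), which is specific for ERK, had the largest difference. It ran from 0.237 to 0.681 CPM in sedentary controls (median 0.513) and from 1.10 to 2.39 CPM in fatigued controls (median 1.59). In PBMT mice it ran from 0.167 to 0.828 CPM when sedentary (median 0.320) and from 1.23 to 3.01 CPM when fatigued (median 1.84). Every fatigued mouse lay above every sedentary mouse. Dusp5 was higher in fatigued mice by 1.80 ± 0.33 on the log2 scale between controls (SE, adjusted p = 0.000479) and by 2.30 ± 0.34 between PBMT groups (SE, adjusted p = 1.69e-05). In each comparison the groups are different mice, and 6 of 6 fatigued mice lay above all sedentary ones.

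Dusp4 was also free of overlap, at 2.66 to 3.65 CPM in fatigued controls and 2.89 to 5.96 CPM in fatigued PBMT mice, against the sedentary levels given above. It rose by 1.18 ± 0.19 on the log2 scale between controls (SE, adjusted p = 0.000104) and by 0.94 ± 0.18 between PBMT groups (SE, adjusted p = 0.00049).

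Dusp2 ran from 0.199 to 1.01 CPM in sedentary controls (median 0.375) and from 0.388 to 0.833 CPM in sedentary PBMT mice (median 0.675). Fatigued controls overlapped sedentary controls, with 3 of 6 above all of them, while fatigued PBMT mice all lay above sedentary PBMT mice. Dusp2 rose by 1.07 ± 0.31 on the log2 scale between controls (SE, adjusted p = 0.0169, from 0.004 to 0.0525 across the alternatives) and by 1.63 ± 0.30 between PBMT groups (SE, adjusted p = 0.000245). The value of 0.0525, past the threshold, came from a fit of only the 12 control mice, and without sedentary control replicate 4 the log2 fold change between controls was 1.42 (adjusted p = 0.000946).

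Dusp1 went the other way from the rest of the nuclear group. It ran from 37.4 to 63.1 CPM in fatigued controls (median 47.7) and from 34.0 to 54.0 CPM in fatigued PBMT mice (median 40.2). All 6 fatigued PBMT mice were below the sedentary PBMT median of 69.1 CPM, and 4 of 6 were below every sedentary PBMT mouse. Dusp1 fell by 0.68 on the log2 scale between PBMT groups (SE 0.17, adjusted p = 0.00407), and between controls its log2 fold change was −0.23 ± 0.17 (SE, adjusted p = 0.366, 5 of 6 below the sedentary control median), or −0.13 without sedentary control replicate 3.

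The cytoplasmic pair, which removes phosphate from ERK outside the nucleus, had 1 called member, Dusp7. It ran from 25.3 to 29.7 CPM in sedentary controls (median 27.5) and from 15.9 to 25.5 CPM in fatigued controls (median 21.2). After PBMT it ran from 20.9 to 29.2 CPM in sedentary mice (median 24.9) and from 14.3 to 20.02 CPM in fatigued mice (median 19.5). Fatigued mice were low, with 5 of 6 controls and 6 of 6 PBMT mice below all of their sedentary counterparts. Dusp7 fell by 0.40 on the log2 scale between controls (SE 0.11, adjusted p = 0.00868) and by 0.44 between PBMT groups (SE 0.11, adjusted p = 0.00323).

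Dusp6, itself a target of ERK signaling, was not called in either comparison. Its log2 fold change was −0.12 ± 0.19 between controls (SE, adjusted p = 0.703, 5 of 6 below the sedentary median) and −0.47 ± 0.19 between PBMT groups (SE, adjusted p = 0.0697, 4 of 6 below all sedentary mice). Between controls it ran from −0.24 (without fatigued control replicate 5) to −0.06 (without fatigued control replicate 4). The value between PBMT groups passed the threshold without fatigued PBMT replicate 5 (log2 fold change −0.61, adjusted p = 0.0212) and without fatigued PBMT replicate 6 (log2 fold change −0.56, adjusted p = 0.0371). It was weakest without sedentary PBMT replicate 2 (log2 fold change −0.33, adjusted p = 0.188).

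Of the members that prefer JNK and p38, Dusp16 (ENSMUSG00000030203, chr6:134715468-134792625, minus strand) had the tightest groups. It ran from 22.1 to 26.6 CPM in sedentary controls (median 22.7) and from 27.9 to 32.3 CPM in fatigued controls (median 30.4). In PBMT mice it ran from 19.4 to 25.3 CPM when sedentary (median 21.2) and from 26.8 to 36.4 CPM when fatigued (median 32.2). Every fatigued mouse was above every sedentary mouse. Dusp16 rose by 0.37 ± 0.07 on the log2 scale between controls (SE, adjusted p = 0.000964) and by 0.57 ± 0.07 between PBMT groups (SE, adjusted p = 3.79e-06).

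Dusp8, a phosphatase enriched in muscle, heart and brain, ran from 24.5 to 48.1 CPM in sedentary controls (median 28.5) and from 38.7 to 61.0 CPM in fatigued controls (median 47.6). Its PBMT groups ran from 25.7 to 47.5 CPM when sedentary (median 30.5) and from 34.2 to 58.8 CPM when fatigued (median 53.5). All 6 fatigued mice of each pair were above the sedentary median, though the groups overlapped. Dusp8 rose by 0.61 ± 0.18 on the log2 scale between controls (SE, adjusted p = 0.0174) and by 0.58 ± 0.17 between PBMT groups (SE, adjusted p = 0.0164). The control overlap came from sedentary control replicate 4 at 48.1 CPM, without which the difference between controls was 0.77 and the groups did not overlap.

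Dusp10 had no common direction with Dusp8 and Dusp16. Between controls its log2 fold change was 0.03 ± 0.32 (SE, adjusted p = 0.958, 3 of 6 above the sedentary median), with a sign that turned when fatigued control replicates 5 or 6 or sedentary control replicate 6 were left out (to −0.28 at most). Between PBMT groups it was −0.86 ± 0.32 (SE, adjusted p = 0.0531), with 5 of 6 fatigued mice below every sedentary mouse. That value passed in DESeq2 (adjusted p = 0.0419) and with at least 10 counts asked of every mouse, and over the alternatives it ran from 0.0419 to 0.114. It also passed without fatigued PBMT replicate 5 (log2 fold change −1.17, adjusted p = 0.00852), sedentary PBMT replicate 4 (−0.94, adjusted p = 0.0461) or sedentary PBMT replicate 5 (−0.98, adjusted p = 0.0348), and was weakest without sedentary PBMT replicate 2 (−0.70, adjusted p = 0.121).

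Dusp26 was close between PBMT groups (log2 fold change 0.04 ± 0.09, SE, adjusted p = 0.794, 3 of 6 above the sedentary median). Between controls it was lower in fatigued mice, at 72.8 to 96.4 CPM (median 81.4), with a log2 fold change of −0.23 ± 0.09 (SE, adjusted p = 0.064) and 6 of 6 below the sedentary median. It passed without fatigued control replicate 2 (−0.28, adjusted p = 0.0338) and without sedentary control replicate 2 (−0.27, adjusted p = 0.0364). Without sedentary control replicate 4 it was −0.19 (adjusted p = 0.112), and the adjusted p reached 0.14 without fatigued control replicate 5.

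**Figure D3:**
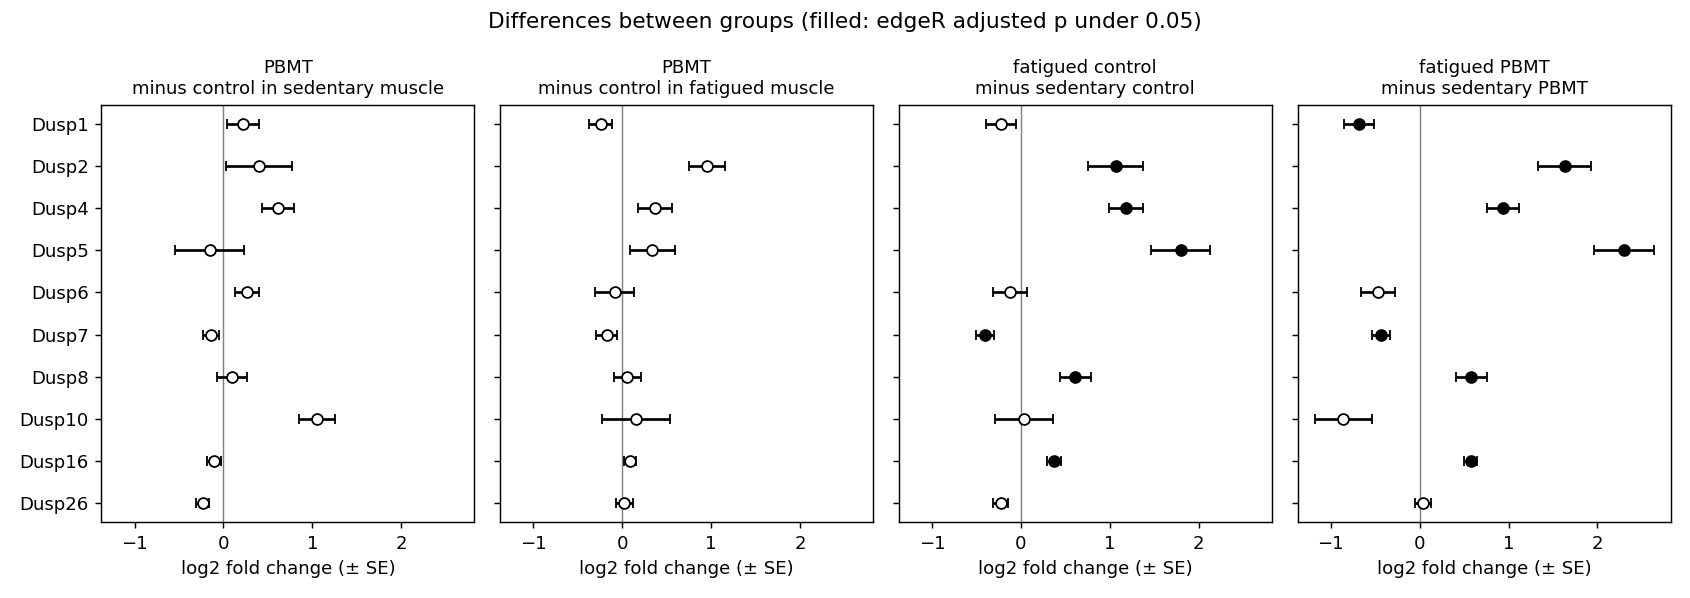
Log2 fold change of each member (x axis, with SE bars) in 4 comparisons, each between groups of 6 mice, with filled points for an adjusted p under 0.05 in edgeR. No point is filled for PBMT against control, 6 are filled between the control groups and 7 between the PBMT groups, Dusp5 having the largest value at 1.80 and 2.30.

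Several other measures differed between fatigued and sedentary mice as well. Mitochondrial transcripts made up 10.5 to 12.85% of counts in fatigued controls and 10.7 to 12.1% in fatigued PBMT mice, below the 13.85 to 17.1% of every sedentary mouse other than control replicate 4 (3.25%). All 5 neutrophil markers were called lower in fatigued controls (median log2 fold change −4.04) and 4 of 5 in fatigued PBMT mice, the summed level having medians of 30.3 CPM in sedentary controls, 26.7 CPM in sedentary PBMT mice, 0.558 CPM in fatigued controls and 1.58 CPM in fatigued PBMT mice. S100a9 was the most abundant of them per kilobase in every group, and S100a8, Retnlg and Cxcr2 had no count in some fatigued controls. Of the 10 fiber markers, 4 were higher in fatigued controls and 3 in fatigued PBMT mice, and between the PBMT groups 5 of 6 myeloid and 4 of 6 interstitial mesenchymal markers were higher. Myeloid markers summed to 52.5 to 100.1 CPM in fatigued controls and 39.6 to 147 CPM in fatigued PBMT mice, with Lyz2 on top and no marker at 0. Interstitial mesenchymal markers summed to 388 to 607 and 422 to 836 CPM there, with Dcn on top and no marker at 0. Of the 6 pericyte and smooth muscle markers, 2 were higher in each comparison, with sums of 839 to 980 CPM in fatigued controls and 776 to 891 CPM in fatigued PBMT mice (Rgs5 on top, no marker at 0). Called between controls were also 1 interstitial mesenchymal and 1 satellite cell marker, both higher. Between the PBMT groups 1 adipocyte and 1 tendon marker were higher, 1 endothelial and 1 satellite cell marker were higher and 1 of each lower, and the 1 keratinocyte marker tested, Krt10, was lower (log2 fold change −1.52). The part of these cells and of mitochondrial transcripts in the members' differences was not tested.

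The kinases that these phosphatases act on were followed next. In sedentary muscle edgeR called 0 of the 5 ERK-type, 3 JNK and 3 p38 kinases tested, 0 of 7 MAP kinase kinases and 0 of 10 kinases activated by them, with 1 of all these, Mapk6 (log2 fold change 0.30 ± 0.08, SE, adjusted p = 0.349), at an unadjusted p under 0.05 and 0 called by DESeq2. Of the 20 kinases at the top of the cascades edgeR called 0 and DESeq2 1, and 3 had an unadjusted p under 0.05, led by Map3k6, also known as ASK2, at 9.74 ± 1.96 CPM in controls and 5.37 ± 1.72 CPM after PBMT (SD, n = 6). Of 23 immediate early genes edgeR called 1 and DESeq2 3, the former being Egr1 (log2 fold change 2.98 ± 0.38, SE, adjusted p = 0.0139, but 0.0513 with no filter and up to 0.0819 without any 1 of control replicates 1, 2, 4, 5 or 6), with 4 higher and 4 lower at an unadjusted p under 0.05, beside 7.63% of all genes. The median of the list was 0.02, beside −0.00186 for all genes tested.

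Fos and Ccn1 serve as reference genes for sedentary muscle. The study names both, and Egr1, from these mice, so their values are not independent evidence. It reports a significant rise of Fos, which edgeR did not call here. Ccn1, a matrix protein gene that the study names, rose by 1.14 ± 0.12 on the log2 scale with PBMT (SE, adjusted p = 0.000384, but 0.116 in the fit of all 24 mice), and Fos had a log2 fold change of 2.00 ± 0.55 (SE, adjusted p = 0.349). Fos ran from 1.05 to 8.00 CPM in sedentary controls (median 5.31) and from 5.53 to 38.01 CPM in sedentary PBMT mice (median 17.6), with partial overlap. In fatigued muscle edgeR and DESeq2 called 0 of the 24 immediate early genes, 1 of which (Klf6) had an unadjusted p under 0.05, with a median log2 fold change of 0.23 beside 0.00406 for all genes. None of the kinases listed above, from the top of the cascades to those activated by MAP kinases, was called by edgeR or DESeq2 there, and 0 had an unadjusted p under 0.05. For the difference of PBMT effects edgeR and DESeq2 called 0 in every list, with 3 immediate early genes, 2 kinases at the top of the cascades and 1 other dual-specificity phosphatase at an unadjusted p under 0.05 among the lists of the pathway.

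ERK feedback inhibitors outside the family were also followed. Of the 9 Sprouty, Spred and related genes tested, 0 were called by edgeR or DESeq2 after PBMT in sedentary muscle, and 2 had an unadjusted p under 0.05, Spry2 (log2 fold change 0.32 ± 0.09, SE, adjusted p = 0.349) and Spred2 (0.32 ± 0.12, SE, adjusted p = 0.57). In fatigued muscle 0 of 9 were called by either tool or had an unadjusted p under 0.05. The same held in sedentary and in fatigued muscle for 15 other dual-specificity phosphatases and for 10 transcripts that depend on ERK. Of the MAP kinase tyrosine phosphatases 1 could be tested in sedentary and 2 in fatigued muscle, with 0 called by either tool and 0 at an unadjusted p under 0.05.

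Between fatigued and sedentary controls, 10 of 24 immediate early genes were higher and 1 lower, a share of 45.8% beside 18.6% of all genes, with a median log2 fold change of 0.62 beside −0.0115. Atf3, a stress-induced transcription factor, rose by 4.28 ± 0.40 on the log2 scale (SE, adjusted p = 5.5e-07), and Nr4a3, an orphan nuclear receptor induced by contraction, by 4.75 ± 0.65 (SE, adjusted p = 4.71e-05). Between the PBMT groups 13 of 24 were higher and 1 lower, a share of 58.3% beside 26.8%, with a median of 0.78 beside 0.0021 for all genes. Fos (log2 fold change 2.12 ± 0.67, SE, edgeR adjusted p = 0.0331), Egr1 (2.93 ± 0.58, 0.00141) and Ccn1 (0.69 ± 0.23, 0.041) were called higher between controls. Ccn1 was called in 4 of 12 fits that leave out a mouse, and Fos was not followed in these fits. Between the PBMT groups none of these was called, at 0.59 ± 0.63, 0.67 ± 0.51 and −0.34 ± 0.23 (SE). Of 10 transcripts that depend on ERK, 2 were higher in fatigued controls (Phlda1 and Epha2, the latter uncalled without sedentary control replicate 1 or 2, adjusted p up to 0.0544) and 1 in fatigued PBMT mice, shares of 20% and 10%. Phlda1 rose in both comparisons, from 6.30 ± 0.83 to 15.3 ± 2.84 CPM in controls and from 5.49 ± 0.28 to 16.7 ± 3.32 CPM in PBMT mice (SD, n = 6 each).

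Of the 9 feedback inhibitors, 4 were higher in fatigued controls (Il17rd, Spry2, Lrig1 and Spred3) and 2 in fatigued PBMT mice (Il17rd and Lrig1), shares of 44.4% and 22.2% beside 18.6% and 26.8% of all genes. Lrig1 and Spred3 are near the threshold between controls, each called in 5 of 12 fits that leave out a mouse (adjusted p up to 0.0685 and 0.117). Il17rd, a membrane inhibitor of growth factor signaling also called Sef, rose by 0.69 ± 0.11 on the log2 scale between controls (SE, adjusted p = 0.000141). Of the kinases themselves, 0 of 5 ERK-type and 0 of 3 p38 kinases were called by edgeR or DESeq2 in either comparison (2 ERK-type and 1 p38 kinase had an unadjusted p under 0.05 between the PBMT groups, none between the controls). Both tyrosine phosphatases of MAP kinases tested were uncalled by edgeR and DESeq2, with 0 at an unadjusted p under 0.05 between controls and 1 (Ptprr) between PBMT groups. Among the JNK genes 1 of 3, Mapk8, fell by 0.23 between controls (SE 0.08, adjusted p = 0.0438) and by 0.39 between PBMT groups (SE 0.08, adjusted p = 0.000774) on the log2 scale, while DESeq2 called 0 JNK genes between controls and 1 between PBMT groups. Between controls the call of Mapk8 held in 3 of 12 fits that leave out a mouse and in 1 of 6 other alternatives (adjusted p up to 0.123).

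Upstream, Map2k3, a kinase kinase of p38, rose by 0.34 ± 0.07 on the log2 scale between controls (SE, adjusted p = 0.00181). It was the 1 of 7 MAP kinase kinases called in each comparison (14.3%, beside 18.6% of all genes between controls and 26.8% between PBMT groups). Of the 20 kinases above it, 4 were higher in fatigued controls (Map3k14, Map3k6, Map3k8 and Map3k2), and 4 were higher and 3 lower in fatigued PBMT mice, shares of 20% and 35%. Map3k2 was uncalled between controls without sedentary control replicates 3 or 4 or fatigued control replicate 4 (adjusted p up to 0.0707), and in a fit of only the 12 control mice (0.0501). Between the PBMT groups, where its adjusted p was 0.035 (log2 fold change 0.38), it was called in 5 of 12 fits that leave out a mouse (adjusted p up to 0.0866, without sedentary PBMT replicate 3). Downstream, 1 of 11 kinases activated by MAP kinases was higher and 1 lower between controls (Mknk2 and Mapkapk5), and 3 were higher and 3 lower between PBMT groups, shares of 18.2% and 54.5%. Mapkapk5 had a log2 fold change of −1.71 between controls, and of −1.05 (adjusted p = 0.107) without sedentary control replicate 4, and was uncalled without fatigued control replicate 6 too (−1.57, adjusted p = 0.0548). Of 15 other dual-specificity phosphatases, 1 was higher and 3 lower in each comparison (26.7% each time), Dusp27 being the one that rose, by 0.48 ± 0.13 on the log2 scale between controls (SE, adjusted p = 0.00966). Its call between PBMT groups (log2 fold change 0.39, adjusted p = 0.0232) was lost without fatigued PBMT replicate 6 (0.34, adjusted p = 0.0542).

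Genes whose levels vary most like each member from mouse to mouse were found by the Pearson correlation of deviations from the group mean over 24 mice, among 15108 genes. These r values describe these mice only, and neighbors share libraries. Dusp1 was most like Btg2 (r = 0.817), Fam107a (0.764) and Per1 (0.741). Dusp8 was most like Ppp1r27 (r = 0.920), Vgll2 (0.853) and Dusp27 (0.833). Dusp10 varied with Ccl24 (r = 0.852), a chemokine gene, with Csf1 (0.839), the macrophage growth factor gene, and with Trf (0.811).

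Among the other members, Dusp6 went with St5 (r = 0.855), Gm37033 and Afap1l2, Dusp7 with Wnt4 (r = 0.821), Cuzd1 and Patz1, and Dusp26 with Slc25a33 (r = 0.833), Pa2g4 and Stard3. For the low members the closest genes were Syt11 (r = 0.795), Slx4 and Sap30l for Dusp2, Tbc1d12 (r = 0.765), Slc35f5 and Ifi44 for Dusp4, and Fbxl15 (r = 0.714), Lmf2 and Nme1 for Dusp5. Dusp16 was nearest to Wfs1 (r = 0.720), Abra and Zbtb21.

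Within the family, the highest r over the 24 mice was 0.738, between Dusp8 and Dusp10, and the lowest was −0.625, between Dusp4 and Dusp7. Dusp1 and Fos had an r of 0.561.

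Promoters were searched for motifs of factors that act downstream of MAP kinases and stress. RefSeq entries (GRCm38.p6) of 300 bases, 250 before and 50 after the start, matched 8 of 10 members, with none for Dusp4 and Dusp26. The motifs searched on both strands were the cAMP response element TGACGTCA (in 1.79% of 32851 promoters), the AP-1 site TGACTCA (5.2%), the EGR site GCGTGGGCG (0.612%), the E-box CACGTG (7.15%), the glucocorticoid receptor core AGAACA (19%), the TATA box TATAAA (13.6%) and the CArG box of serum response factor (1.63%). The cAMP response element was in 2 members (Dusp1 and Dusp8), the E-box in 2 (Dusp1 and Dusp2) and the CArG box in 1 (Dusp5), with no match of the other motifs in any member. Each match is a description of the letters and not evidence that a factor binds.

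The 4 promoters with a match are printed. Of their genes, Dusp2, Dusp5 and Dusp8 were called higher, and Dusp1 lower, in fatigued PBMT mice than in sedentary PBMT mice. Dusp16 (higher) and Dusp7 (lower) were called there too, and their promoters held no match. None of the 4 genes was called by edgeR between fatigued PBMT and fatigued control mice, where Dusp2 alone was called by DESeq2 and had an unadjusted p under 0.05. Each is the stretch of 200 bases from 250 to 51 bases before the RefSeq start, 5′ to 3′ on the strand of the gene, and capitals mark the motifs. They lie at chr17:26508523-26508722 (minus strand) for Dusp1, chr2:127335909-127336108 (plus strand) for Dusp2, chr19:53528895-53529094 (plus strand) for Dusp5 and chr7:142095335-142095534 (minus strand) for Dusp8. Dusp1 holds a cAMP response element that begins 143 bases before the start and an E-box that begins 126 bases before it, Dusp8 holds 2 cAMP response elements that begin 107 and 63 bases before it, Dusp2 holds an E-box that begins 109 bases before it, and Dusp5 holds 2 CArG boxes side by side.
Dusp1: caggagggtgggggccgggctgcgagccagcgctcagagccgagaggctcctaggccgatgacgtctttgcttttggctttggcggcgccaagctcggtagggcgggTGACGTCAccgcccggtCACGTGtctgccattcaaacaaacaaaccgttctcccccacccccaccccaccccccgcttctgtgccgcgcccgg
Dusp2: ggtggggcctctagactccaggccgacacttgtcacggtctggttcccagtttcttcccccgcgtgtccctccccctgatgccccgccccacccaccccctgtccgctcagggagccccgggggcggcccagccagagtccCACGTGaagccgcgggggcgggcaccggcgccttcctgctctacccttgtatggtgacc
Dusp5: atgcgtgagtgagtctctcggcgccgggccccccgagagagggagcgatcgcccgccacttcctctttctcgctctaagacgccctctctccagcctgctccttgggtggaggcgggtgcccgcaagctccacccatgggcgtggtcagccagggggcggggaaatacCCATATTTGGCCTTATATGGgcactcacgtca
Dusp8: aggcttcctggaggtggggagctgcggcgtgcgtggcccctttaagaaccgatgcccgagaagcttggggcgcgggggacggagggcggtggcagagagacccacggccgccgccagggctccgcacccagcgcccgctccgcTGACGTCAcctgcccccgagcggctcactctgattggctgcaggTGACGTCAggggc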

How the data were processed

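Integer count data for each mouse, as deposited by the authors, were used, made from poly(A)-selected, directional libraries. The submitters' processing notes name Trimmomatic, STAR 2.7.1a, Picard 2.20.4, StringTie 2.0.4, featureCounts 1.6.0, HTSeq and GRCm38. Of 55487 identifiers, 55227 matched GENCODE M21. Groups came from the sample titles. edgeR 4.0.16 in R 4.3.3 was used with TMM, filterByExpr (minimum count 10), robust quasi-likelihood tests and Benjamini-Hochberg adjustment over all genes tested, within each project for PBMT against control and over 24 mice otherwise. Both tools were tested on simulated data, where DESeq2's calls held a larger share of unchanged genes than edgeR's and than the threshold allows, which limits results called by DESeq2 alone. log2 CPM had a prior count of 2. The alternatives were a lighter filter (any count), a stricter one (10 counts in each mouse), DESeq2 size factors, DESeq2 1.42.0, the replicate number as a block, other sets of mice, longest transcript length and leaving out each mouse. The named genes are all members, per list up to 4 called genes by smallest p (otherwise up to 2 at an unadjusted p under 0.05), Fos, Egr1 and Ccn1, and the 3 genes most correlated with each member. Members and lists were chosen with earlier results of these data known. No pair of mice within a group differed by as little as sampling noise (lowest chi-square per degree of freedom 12.8 over 60 pairs). At 43271093 to 68726155 counts per mouse, counting error is small except for Dusp2, Dusp4 and Dusp5.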

Additional observations from a re-analysis of the deposited data

Results flagged for a closer look

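Of 40 sets of 6 mice examined (10 members in 4 groups), 4 had a mouse far from the other 5, and chance alone gives about 1 in 20. Dusp6 was at 21.9 CPM in sedentary PBMT replicate 2, against 12.4 to 14.6 CPM in the other mice of that group. Dusp8 was at 48.1 CPM in sedentary control replicate 4, where the others lay between 24.5 and 31.5 CPM. Dusp10 reached 36.1 CPM in fatigued PBMT replicate 5, with the rest at 9.54 to 18.9 CPM. That mouse also had the highest sums of its group for myeloid (146.8 CPM, others 39.6 to 89.0) and interstitial mesenchymal markers (835.7 CPM, others 422.4 to 540.5). The same held for tendon (497.1 CPM, others 84.2 to 184.6) and adipocyte markers (37.9 CPM, others 6.65 to 21.6), and their part was not tested. Dusp26 reached 110.7 CPM in fatigued PBMT replicate 1, with the rest at 71.2 to 85.3 CPM.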

How the results depend on the processing

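Every call of a member between fatigued and sedentary groups was kept under all alternatives in which it was tested and all left-out mice, except Dusp2 between controls, which missed the threshold in a fit of only the 12 mice compared. In sedentary muscle the count of genes higher and lower with PBMT was 3 and 1, and became 8 and 8 with no filter and 22 and 38 with DESeq2, with 1 member (Dusp10) called there, while the fit of all 24 mice had 0 higher. In fatigued muscle DESeq2 had 2 genes higher, 1 of them a member (Dusp2). With no filter 899 genes were lower in fatigued than in sedentary controls, against 1434. With the replicate number as a block, 7 genes were higher and 4 lower in sedentary muscle, 1 was higher in fatigued muscle, and Dusp10 between controls turned to −0.0683 on the log2 scale. Control and PBMT mice of the same number had r from −0.0715 to 0.0664 in sedentary and from −0.0846 to 0.325 in fatigued mice. Of the fatigued controls 4 of 6 had r over 0.1 and 3 of 6 were closest to their own number, against 0 and 1 of the sedentary controls. The labels give no pairing, and whether the numbers pair the fatigued mice was not shown. By longest transcript, the cytoplasmic share was 12.3% in sedentary controls and 12.1% in sedentary PBMT mice, and the nuclear share 24.4% in sedentary and 23.9% in fatigued controls. By that length Dusp16 stood above Dusp6 in sedentary controls (4.361% and 4.195%) and above Dusp10 in fatigued controls (6.035% and 5.903%). In fatigued PBMT mice it stood above Dusp7 (6.485% and 5.905%). The cause was not tested.

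Leaving out 1 mouse at a time, genes higher with PBMT in sedentary muscle ran from 1 (without control replicates 1, 2 or 6) to 7, genes lower from 1 to 13 (both highest without PBMT replicate 5, with 6 and 12 without control replicate 4, 6 and 4 without PBMT replicate 2, and 5 and 2 without PBMT replicate 4), and members called from 0 to 1 (Dusp10, without PBMT replicate 5). Genes higher in the difference of PBMT effects ran from 1 to 3 (without sedentary PBMT replicate 2), and genes lower in fatigued controls from 934 (without fatigued control replicate 6) to 1942. Uncalled log2 fold changes that turned sign ran, for PBMT in sedentary muscle, from −0.47 to 0.0157 in Dusp5 and from −0.0359 to 0.25 in Dusp8. In fatigued muscle they ran from −0.22 to 0.0399 in Dusp6, from −0.15 to 0.48 in Dusp10 and from −0.0702 to 0.06995 in Dusp26. For the difference of PBMT effects the ranges were −0.11 to 0.0330 in Dusp7 and −0.20 to 0.0938 in Dusp8. Between controls Dusp10 ran from −0.28 to 0.17, and between PBMT groups Dusp26 from −0.0528 to 0.0885. Depth limits Dusp2 and Dusp5, with as few as 9 reads in a sedentary mouse.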
